A study of Homo sapiens with 36 samples.

Results

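Aminoacyl-tRNA synthetases are the enzymes that attach each amino acid to its transfer RNA. The mRNA levels of 36 synthetase genes were examined in 36 libraries of TXNL1 knockout (KO) HEK 293T cells, a human embryonic kidney cell line. The genes were taken from a list of symbols and found in the deposited table by their Ensembl identifiers. All 36 were present among 61587 genes, and all 36 were among the 22486 genes with enough reads to be tested. The list holds 20 genes for cytosolic enzymes, which are the genes with the suffix 1 together with FARSA, FARSB and TARS3, and 16 genes for mitochondrial enzymes, which carry the suffix 2. TARS3, a paralog of TARS1, was counted with the cytosolic enzymes.

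Every library came from HEK 293T cells in which TXNL1 had been disrupted with Cas9, so the vector controls are knockout cells too. TXNL1 is a thioredoxin-like protein that binds the proteasome. The KO cells had received a lentiviral expression construct in 4 versions, named the vector, WT, DR-RD and SxxS lines. The vector line carries no TXNL1. The WT line expresses the unaltered protein, the DR-RD line a protein with the substitutions D162R and R234D, which is deficient in proteasome binding, and the SxxS line a protein in which serines replace the cysteines of the thioredoxin active site. Each line was given the solvent DMSO ("untreated"), arsenite or hydrogen peroxide, with 3 replicate libraries in each of the 12 groups. Arsenite was used at 100 µM and hydrogen peroxide at 600 µM, each for 6 h. Both are oxidants, and arsenite also binds thiol groups of proteins. Clones of KO cells were expanded after a single-cell sort, with the number behind these lines not given, and a viral promoter drove expression. According to the methods of the study, cells in 6-well plates were treated in triplicate. Whether the replicates were separate cultures before treatment is not said, and p-values then measure only the spread between these libraries. This is bulk RNA, in which fewer cells and less RNA per cell cannot be told apart.

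Cytosolic translation and mitochondrial translation use separate sets of synthetases, both encoded in the nucleus. GARS1 and KARS1 are exceptions, since each gives rise to a cytosolic and a mitochondrial enzyme. EPRS1 joins the glutamyl and the prolyl enzyme in a single protein, FARSA and FARSB are the subunits of the cytosolic phenylalanyl enzyme, and several cytosolic enzymes are held together in the multi-tRNA synthetase complex. Many cytosolic synthetase genes are known targets of ATF4, a transcription factor whose translation increases when amino acids run short or other stresses lead to phosphorylation of the initiation factor eIF2. ATF4 with its partners binds C/EBP-ATF response elements in promoters.

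The letters of such an element were looked for in the promoters, because most called cytosolic members rose with arsenite. The motif searched was TGATGNAA on either strand, whose reverse complement is TTNCATCA, in the window from 250 bases before to 50 bases after each start site in RefSeq (GRCh38.p14). Windows were found for 30 of the 36 members. TARS3, AARS2, YARS1, VARS2, VARS1 and LARS1 were not in the table. The motif was present in 8 of the 30 members, in 7 of 16 cytosolic genes and in 1 of 14 mitochondrial genes. It was present in 3.6% of 15843 protein-coding genes, where a match in any window of a gene counted. The windows of the 8 members follow here, cut around the motif, written 5′ to 3′ on the gene's strand with the motif in capitals, so that the letters can be read beside the responses that follow. A stretch that would run far past the start site ends with the motif.
CARS1, chr11:3057418-3057465, - strand: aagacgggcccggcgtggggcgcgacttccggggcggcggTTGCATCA
GARS1, chr7:30594805-30594877, + strand: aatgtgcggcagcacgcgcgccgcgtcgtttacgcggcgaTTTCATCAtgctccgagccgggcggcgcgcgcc
TARS1, chr5:33440927-33440974, + strand: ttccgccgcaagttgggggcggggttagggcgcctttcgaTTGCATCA
MARS1, chr12:57488024-57488071, + strand: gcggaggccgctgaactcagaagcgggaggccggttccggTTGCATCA
AARS1, chr16:70289646-70289733, - strand: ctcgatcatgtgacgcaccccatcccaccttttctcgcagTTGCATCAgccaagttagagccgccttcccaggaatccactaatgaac
IARS1, chr9:92293698-92293750, - strand: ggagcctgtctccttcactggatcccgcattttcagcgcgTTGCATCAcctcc
NARS1, chr18:57621815-57621862, - strand: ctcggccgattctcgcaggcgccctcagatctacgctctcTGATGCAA
YARS2, chr12:32756047-32756134, - strand: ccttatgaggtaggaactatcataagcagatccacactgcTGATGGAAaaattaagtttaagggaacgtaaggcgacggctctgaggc

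The match read TTGCATCA in TARS1, IARS1, CARS1, MARS1 and AARS1 and TTTCATCA in GARS1, in each case on the opposite strand. It read TGATGCAA in NARS1 and TGATGGAA in YARS2, on the gene's own strand. The first base of the match lay 2 bases before the start site in CARS1, 4 bases before it in MARS1, 13 in IARS1 and 33 in GARS1. In AARS1 and YARS2 it lay farther away, at 187 and 197 bases before the start. In TARS1 and NARS1 it began downstream of the start site, at positions 2 and 14. CARS1, GARS1 and TARS1 have 2 windows each, and the match and its distance are those of 1 of them. A match is a description of these letters and not evidence of binding.

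HARS1 and HARS2, the cytosolic and the mitochondrial histidyl enzymes, lie head to head on chromosome 5. Their RefSeq start sites are at 140691370 for HARS1, on the - strand, and 140691455 for HARS2, on the + strand. The 84 bases between the start sites are shown because both genes are transcribed away from them, and 59.5% of them are G or C.
HARS1 and HARS2, chr5:140691371-140691454, + strand: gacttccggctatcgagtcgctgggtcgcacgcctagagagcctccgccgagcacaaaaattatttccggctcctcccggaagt
Neither window of the pair held the searched motif.

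Library totals ran from 42072410 to 174119002 counts with a median of 66016833, and no member fell below 150 counts in any library. Levels are given as CPM, the counts of a gene scaled to equal library totals after TMM normalization. TXNL1 transcripts in untreated cells were at 30.6 ± 1.77 CPM in the vector line (SD, n = 3, as for all values in this form), 54.4 ± 3.15 in WT, 62.9 ± 3.50 in DR-RD and 53.4 ± 1.65 in SxxS. With arsenite they were at 69.3 ± 2.19, 100.5 ± 5.63, 105 ± 3.43 and 99.2 ± 0.104 CPM, and with peroxide at 31.4 ± 0.746, 55.4 ± 1.98, 78.7 ± 3.20 and 61.5 ± 2.71 CPM in the same order. The vector line had the lowest level under each treatment, and the counts cover the whole gene, so reads of a disrupted transcript are included. Of 7 genes listed as markers of HEK 293T cells, VIM (466 ± 7.71 CPM) and LIN28B (174.5 ± 3.004 CPM) were abundant in untreated vector cells, NEFL (2.14 CPM), LHX1 (1.49), PAX2 (0.187) and NEFM (0.125) were low, and PAX8 had no read. Of 4 markers of other cell types, PTPRC, ALB and PECAM1 were at 0.0112, 0.0112 and 0.0122 CPM, and COL1A1, a collagen of fibroblasts, was at 14.4 ± 1.31 CPM. A pair of WT libraries stood apart by the SD of log2 CPM about their group's median, which came to 0.546 for replicate 1 of WT with arsenite, to 0.624 for replicate 2 of WT with peroxide, and to between 0.0821 and 0.193 for each of the other 34. Test results of the synthetase genes that rest on them are given with and without them. Those of the other listed genes are given with all libraries only.

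With arsenite most called cytosolic synthetase genes rose, and the mitochondrial genes were split evenly between rises and falls. Averaged over the 4 lines, with 12 treated against 12 untreated libraries, 12 of the 20 cytosolic genes rose, 2 fell and 6 were not called, where a call means an adjusted p under 0.05 by the quasi-likelihood test of edgeR. Of the 16 mitochondrial genes, 8 rose, 8 fell and none was left uncalled. Over all 22486 genes tested, 37.4% rose and 31.5% fell. The median log2 fold change was 0.14 for the cytosolic genes, -0.025 for the mitochondrial genes and 0.060 for all genes tested. Rises made up a larger share of both groups than of all genes. Falls made up a smaller share of the cytosolic and a larger share of the mitochondrial genes. No test of these shares was made, and they are not matched for level. A gene needed only 10 reads in total over the untreated vector libraries to be tested, while no member fell below 150 counts in any library. The 12 arsenite libraries lay above all 12 untreated libraries in 8 cytosolic and 7 mitochondrial genes and below all of them in 1 cytosolic and 7 mitochondrial genes. Of all genes tested, 13.4% lay above and 16.6% below in this way, and 68.8% were called in either direction. Without both WT libraries that stood apart, 14 cytosolic genes rose and 2 fell, and the mitochondrial counts were 8 and 8, where 38.4% of all genes rose and 35.3% fell.

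**Figure D1:**
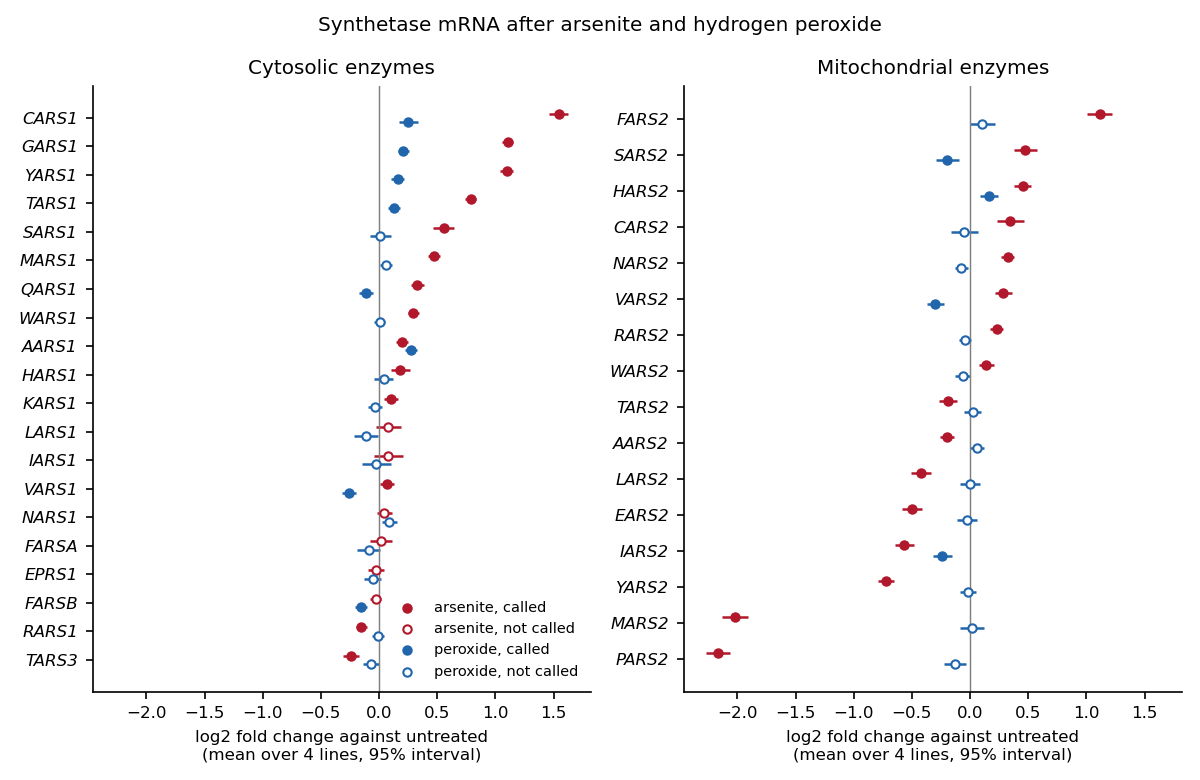
Log2 fold change of each synthetase gene against untreated cells, averaged over the 4 lines, for arsenite (red) and hydrogen peroxide (blue). Bars are 95% intervals, and filled symbols were called at an adjusted p under 0.05 by edgeR. Cytosolic enzymes (left) reach 1.54 for CARS1, and mitochondrial enzymes (right) run from 1.11 for FARS2 down to -2.17 for PARS2 with arsenite, while every peroxide value lies between -0.30 and 0.27.

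The strongest rise was that of CARS1, which charges cysteine (chr11:3000922-3057613, - strand and 23 exons). Its 12 untreated libraries ran from 66.5 to 74.9 CPM (median 71.0) and its 12 arsenite libraries from 182 to 229 CPM (median 208). By library it was at 68.3, 68.1 and 67.3 CPM untreated and 207, 204 and 208 CPM with arsenite in the vector line. In the WT line the values were 69.2, 74.4 and 73.5 and 229, 182 and 185 CPM, in the DR-RD line 73.7, 74.9 and 73.8 and 224, 209 and 219 CPM, and in the SxxS line 66.5, 68.7 and 72.9 and 206, 209 and 201 CPM. Every arsenite library was above every untreated library, and the highest of them was WT arsenite replicate 1. The log2 fold change was 1.54 ± 0.040 (SE), or 2.92-fold, with an edgeR adjusted p of 6.71e-24.

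GARS1, the glycyl enzyme of both compartments (chr7:30580533-30634033, + strand), was at 303, 318 and 305 CPM untreated and 673, 697 and 681 CPM with arsenite in the vector line. Over the lines it ran from 301 to 335 CPM (median 316) untreated and from 598 to 757 CPM (median 689), a change of 1.10 ± 0.024 on the log2 scale or 2.15-fold. The tyrosyl gene YARS1 (chr1:32775237-32818031, - strand) had 444, 444 and 442 CPM untreated and 977, 985 and 958 CPM with arsenite in the vector line. Its 12 untreated libraries ran from 409.8 to 473 CPM (median 451) and its arsenite libraries from 888 to 1038 CPM (median 970.0), and the log2 fold change was 1.10 ± 0.026. In both genes the libraries split with no overlap between the treatments. Their edgeR adjusted p was 5.63e-26 for GARS1 and 8.85e-25 for YARS1.

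TARS1, the threonyl gene (chr5:33440696-33468091, + strand), rose from 413, 404 and 409.6 to 712, 749 and 719.9 CPM in the vector line. The WT libraries with arsenite were at 640.3, 727 and 701 CPM, those of DR-RD at 787, 774 and 745 and those of SxxS at 720.2, 744 and 704. The lowest arsenite library, WT replicate 1, was still above the highest untreated library at 473 CPM. The log2 fold change was 0.79 ± 0.024. SARS1, the seryl gene, had 282, 279.9 and 274 CPM untreated and 393, 386 and 402 CPM with arsenite in the vector line, and its arsenite libraries over all lines ran from 372 to 480.4 CPM (median 397) against 257 to 293 CPM (median 277) untreated. Its log2 fold change was 0.55 ± 0.043. MARS1 charges methionine, also on the initiator tRNA. Its vector libraries were at 279, 273 and 278 CPM untreated and 384, 380.4 and 391 CPM with arsenite, and its log2 fold change was 0.47 ± 0.025. For MARS1, 13.3% of the exon bases overlap the opposite-strand genes DDIT3 and ARHGAP9 or the microRNA gene MIR6758. DDIT3 itself rose from a median of 7.23 to 38.8 CPM, while MARS1 rose from a median of 275.4 to 381.5 CPM. Whether strand was used in counting is not stated in the sources used here.

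**Figure D2:**
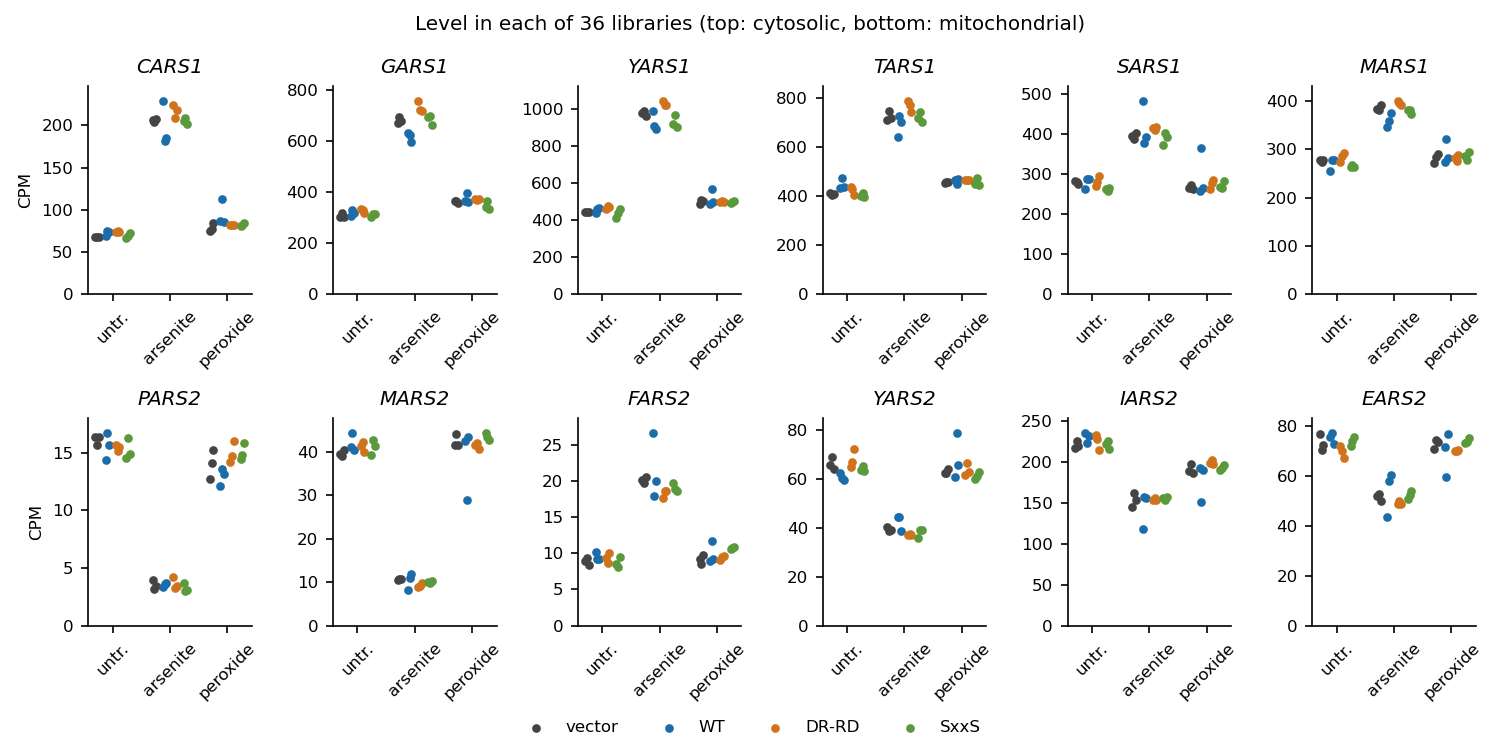
CPM of 12 synthetase genes in each of the 36 libraries, by treatment (untr., untreated) and line, with cytosolic genes above and mitochondrial genes below and axes that start at 0. The arsenite libraries of CARS1 (181.6 to 228.5 CPM) and PARS2 (3.04 to 4.21 CPM) lie apart from the other libraries, and single WT points depart from their groups in several panels.

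QARS1 and WARS1, the glutaminyl and tryptophanyl genes, also separated without overlap. QARS1 ran from 189 to 227 CPM (median 212) in untreated libraries and from 239.7 to 283 CPM (median 267) with arsenite, a log2 fold change of 0.33 ± 0.028. WARS1 had 175, 171 and 169 CPM untreated and 216, 215 and 215 CPM with arsenite in the vector line, and its log2 fold change was 0.30 ± 0.023. AARS1 (alanyl) and HARS1 (histidyl) rose less, by 0.20 ± 0.024 and 0.18 ± 0.040 on the log2 scale, and their treated and untreated libraries overlapped. HARS1 was at 126, 131 and 123 CPM untreated and 138, 138 and 142 CPM with arsenite in the vector line. KARS1, the lysyl gene of both compartments, changed by 0.10 ± 0.030 (edgeR adjusted p 0.00299) and was called in 1 of the 4 lines, and its averaged call was lost with no filter on low counts (0.077, edgeR adjusted p 0.106). VARS1, the valyl gene, changed by 0.068 ± 0.028 (edgeR adjusted p 0.032), and this call was lost in 16 of 33 alternatives, in which its adjusted p reached 0.507. Of these, 9 left out a single library, with log2 fold changes between 0.053 and 0.065. The libraries were vector untreated replicate 1, WT untreated replicate 2, DR-RD untreated replicates 1 and 3, SxxS untreated replicate 2, vector arsenite replicate 1, WT arsenite replicate 1, DR-RD arsenite replicate 2 and SxxS arsenite replicate 2.

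RARS1, the arginyl gene, and TARS3 were the cytosolic genes that fell. RARS1 was at 251, 252 and 251 CPM untreated and 203, 216 and 218 CPM with arsenite in the vector line, with 235 to 268 CPM (median 249) over all untreated libraries and 203 to 270.2 CPM (median 219) over those with arsenite. The 3 WT arsenite libraries, at 270.2, 234.8 and 249 CPM, lay within or above the untreated range, and the 9 arsenite libraries of the other lines, at 203 to 226 CPM, lay below it. RARS1 fell by 0.15 on the log2 scale (SE 0.024) and was called in the vector and the DR-RD line. TARS3 was at 31.7, 31.7 and 32.2 CPM untreated and 25.7, 27.9 and 26.2 CPM with arsenite in the vector line and at 24.2 to 28.9 CPM (median 26.6) over the 12 arsenite libraries, all below the 12 untreated libraries at 29.5 to 33.2 CPM (median 31.7). It fell by 0.24 on the log2 scale (SE 0.033) and was called lower in all 4 lines. The paralogs TARS1 and TARS3 therefore moved in opposite directions, with an edgeR adjusted p of 3.02e-22 for TARS1 and 2.29e-07 for TARS3.

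The cytosolic genes that were not called were EPRS1 (-0.027), FARSA (0.016), FARSB (-0.030), IARS1 (0.079), LARS1 (0.080) and NARS1 (0.043, all log2 fold changes). Their 95% intervals reached at most 0.20, as in IARS1 (-0.044 to 0.20), so the intervals leave room for small changes. IARS1 and LARS1, the isoleucyl and leucyl genes, depended on a single library. Without WT arsenite replicate 1 the log2 fold change was 0.13 for IARS1, with an edgeR adjusted p of 0.0111, and 0.12 for LARS1, with 0.00980. NARS1 was called higher without both WT libraries that stood apart (0.041, edgeR adjusted p 0.0352), and FARSB was called lower by DESeq2 (-0.053, adjusted p 0.0245) and by edgeR without composition factors (-0.073, adjusted p 0.0175). IARS1 and NARS1 carry the searched motif and did not pass the test in all libraries. By call, the motif was found in 5 of 10 cytosolic genes that rose, in 2 of 5 that were not called and in neither the 1 that fell nor the 7 mitochondrial genes that rose. Among the mitochondrial genes that fell it was found in 1 of 7.

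Members of the multi-tRNA synthetase complex (EPRS1, IARS1, KARS1, LARS1, MARS1, QARS1 and RARS1) had a median log2 fold change of 0.080, and 3 of 7 rose and 1 fell, beside a median of 0.060 and shares of 37.4% higher and 31.5% lower over all genes tested. Of the 13 enzymes outside the complex, 9 rose and 1 fell, with a median of 0.20. MARS1, QARS1 and KARS1 were the complex members that rose. Enzymes with the class I catalytic fold had 6 rises and 1 fall among 9 genes (median 0.30), and those of class II had 6 rises and 1 fall among 10 (median 0.14). EPRS1, which holds a domain of each class, was left out of the classes. No difference between these subgroups was tested.

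Among the mitochondrial enzymes, PARS2 (prolyl, chr1:54756898-54764523, - strand) and MARS2 (methionyl, chr2:197705369-197708395, + strand) fell most. PARS2 was at 16.3, 15.7 and 16.3 CPM untreated and 3.93, 3.14 and 3.45 CPM with arsenite in the vector line. It was at 14.3, 16.7 and 15.7 and 3.32, 3.59 and 3.65 CPM in WT, 15.7, 15.2 and 15.5 and 4.21, 3.26 and 3.42 CPM in DR-RD and 14.5, 16.3 and 14.8 and 3.73, 3.04 and 3.07 CPM in SxxS. In each line the arsenite libraries lay far below the untreated ones. PARS2 fell by 2.17 on the log2 scale (SE 0.049), or 4.49-fold, with an edgeR adjusted p of 2.12e-25.

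MARS2 was at 39.3, 39.0 and 40.3 CPM untreated and 10.4, 10.6 and 10.7 CPM with arsenite in the vector line. Its arsenite libraries were at 8.30, 10.9 and 11.97 CPM in WT, 8.97, 9.17 and 9.71 in DR-RD and 10.1, 9.87 and 10.4 in SxxS, against 39.0 to 44.2 CPM (median 40.7) over the 12 untreated libraries. MARS2 fell by 2.02 on the log2 scale (SE 0.054), or 4.06-fold. Its gene has a single exon, and PARS2 has 2 exons. Methionine and proline thus had mitochondrial enzymes that fell while MARS1, of the same amino acid, rose by 0.47 and EPRS1 was not called.

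YARS2 (tyrosyl), IARS2 (isoleucyl), EARS2 (glutamyl) and LARS2 (leucyl) fell by 0.72, 0.56, 0.50 and 0.42 on the log2 scale, with SE from 0.034 to 0.043. YARS2 was at 65.8, 68.8 and 64.0 CPM untreated and 40.2, 38.6 and 39.1 CPM with arsenite in the vector line. IARS2, the mitochondrial member with the highest CPM, was at 217, 225 and 219 CPM untreated and 145, 161 and 154 CPM with arsenite. EARS2 had 76.7, 70.3 and 72.4 CPM untreated and 51.8, 52.8 and 49.8 CPM with arsenite. None of the 12 arsenite libraries of these 4 genes overlapped the untreated libraries. AARS2 and TARS2, the alanyl and threonyl genes, fell less, by 0.20 and 0.19 on the log2 scale, and TARS2 overlapped between treatments.

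FARS2, the mitochondrial phenylalanyl gene (chr6:5261044-5829192, + strand), rose most in this group. It was at 8.94, 9.39 and 8.37 CPM untreated and 20.2, 19.7 and 20.5 CPM with arsenite in the vector line, and over the lines at 8.14 to 10.1 CPM (median 9.23) untreated and 17.6 to 26.7 CPM (median 19.3) with arsenite. The highest value was that of WT arsenite replicate 1. Its log2 fold change was 1.11 ± 0.052, or 2.16-fold, with an edgeR adjusted p of 1.05e-17. FARSA and FARSB, the subunits of the cytosolic enzyme for the same amino acid, had log2 fold changes of 0.016 and -0.030 and were not called. FARS2 was also the member with the lowest level per kilobase of the deposited gene length in untreated vector cells.

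Smaller rises were seen in SARS2 (seryl, 0.47 ± 0.048), HARS2 (histidyl, 0.45 ± 0.037), CARS2 (cysteinyl, 0.34 ± 0.057), NARS2 (asparaginyl, 0.32 ± 0.028), VARS2 (valyl, 0.29 ± 0.035), RARS2 (arginyl, 0.23 ± 0.026) and WARS2 (tryptophanyl, 0.14 ± 0.031), all as log2 fold changes with SE. HARS2 was at 22.7, 19.4 and 20.6 CPM untreated and 27.9, 28.4 and 29.7 CPM with arsenite in the vector line, NARS2 at 30.6, 32.5 and 33.0 CPM untreated and 38.8, 37.4 and 38.3 CPM with arsenite and RARS2 at 51.2, 46.5 and 48.2 CPM untreated and 55.8, 55.6 and 56.7 CPM with arsenite. Their libraries did not overlap between treatments over the lines. CARS2 was at 30.4, 29.2 and 31.5 CPM untreated and 38.3, 36.3 and 36.4 CPM with arsenite in the vector line, and over the lines its arsenite libraries reached 54.9 CPM, in WT arsenite replicate 1. WARS2 was at 43.3, 42.2 and 41.0 CPM untreated and 47.4, 46.1 and 47.2 CPM with arsenite, and its treatments overlapped over the lines.

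SARS2 was at 26.4, 27.1 and 28.0 CPM untreated and 37.0, 32.9 and 36.1 CPM with arsenite and VARS2 at 25.3, 22.9 and 23.1 CPM untreated and 29.2, 30.9 and 30.4 CPM with arsenite in the vector line. In both genes a large part of the exon bases is shared with a readthrough gene on the same strand, 48.2% for SARS2 and 63.0% for VARS2, so reads of the pair cannot be assigned to 1 gene with certainty. HARS1 and HARS2, which lie head to head, overlap each other in part of their exons (8.5% and 7.0% of exon bases overlapped by any gene). Both histidyl genes rose, HARS1 by 0.18 and HARS2 by 0.45 on the log2 scale.

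Set side by side by amino acid, 5 mitochondrial genes rose together with their cytosolic counterpart (CARS2, HARS2, SARS2, VARS2 and WARS2). In 4 amino acids the cytosolic gene rose and the mitochondrial gene fell, which were alanine, methionine, threonine and tyrosine. Tyrosine had log2 fold changes of 1.10 in YARS1 and -0.72 in YARS2. Arginine was the opposite case, with RARS1 lower (-0.15) and RARS2 higher (0.23). In the remaining pairs the cytosolic gene was not called. WARS1 and WARS2, for tryptophan, rose by 0.30 and 0.14.

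The summed level of the 20 cytosolic genes was 5102 to 5508 CPM (median 5259) in the 12 untreated libraries and 6739 to 7404 CPM (median 7010) in the 12 arsenite libraries. The sum of the 16 mitochondrial genes was 942 to 984 CPM (median 964) untreated and 773 to 846 CPM (median 801) with arsenite. Neither sum overlapped between these treatments, and the cytosolic sum was higher and the mitochondrial sum lower with arsenite in every library. The sums are not divided by length, so genes with high CPM weigh most. Medians went from 224 to 155 CPM in IARS2 and from 177 to 133 CPM in LARS2, while 8 of the 16 mitochondrial genes rose. In the cytosolic sum, medians went from 451 to 970 CPM in YARS1, from 316 to 689 in GARS1 and from 413 to 723 in TARS1. With peroxide the cytosolic sum was 5261 to 5477 CPM (median 5412) and the mitochondrial sum 879 to 951 CPM (median 923), and both overlapped the untreated range. WT arsenite replicate 1 had the lowest cytosolic and the lowest mitochondrial sum of the arsenite libraries, and WT peroxide replicate 2 the lowest mitochondrial sum of the peroxide libraries.

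Within single lines, with 3 libraries against 3, arsenite gave calls for 11 cytosolic genes in the vector line (43.4% of all genes tested were called), 13 in WT (53.6%), 11 in DR-RD (44.0%) and 11 in SxxS (43.6%). For the mitochondrial genes the counts were 16, 14, 15 and 14 in the same order. In all 4 lines CARS1, GARS1, MARS1, QARS1, SARS1, TARS1, WARS1 and YARS1 were called higher and TARS3 lower. Among the mitochondrial genes, FARS2, HARS2, NARS2, RARS2, SARS2 and VARS2 were called higher in all 4 lines and AARS2, EARS2, IARS2, LARS2, MARS2, PARS2 and YARS2 lower. Over all genes tested, 14.9% were called higher and 16.1% lower in all 4 lines. CARS1 ranged from 1.45 to 1.60, GARS1 from 0.96 to 1.16, FARS2 from 0.97 to 1.18, MARS2 from -2.15 to -1.90 and PARS2 from -2.21 to -2.10 on the log2 scale between the lines. Without both WT libraries that stood apart the cytosolic counts were 13, 13, 16 and 15 and the mitochondrial count was 16 in each line, where 56.4%, 52.9%, 56.9% and 57% of all genes were called. Over all 33 alternatives, those without either or both of these WT libraries included, the averaged log2 fold change ran from 1.496 to 1.56 in CARS1, from 1.06 to 1.11 in GARS1, from 1.05 to 1.11 in YARS1, from 1.05 to 1.14 in FARS2, from -2.06 to -1.98 in MARS2 and from -2.21 to -2.15 in PARS2.

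**Figure D3:**
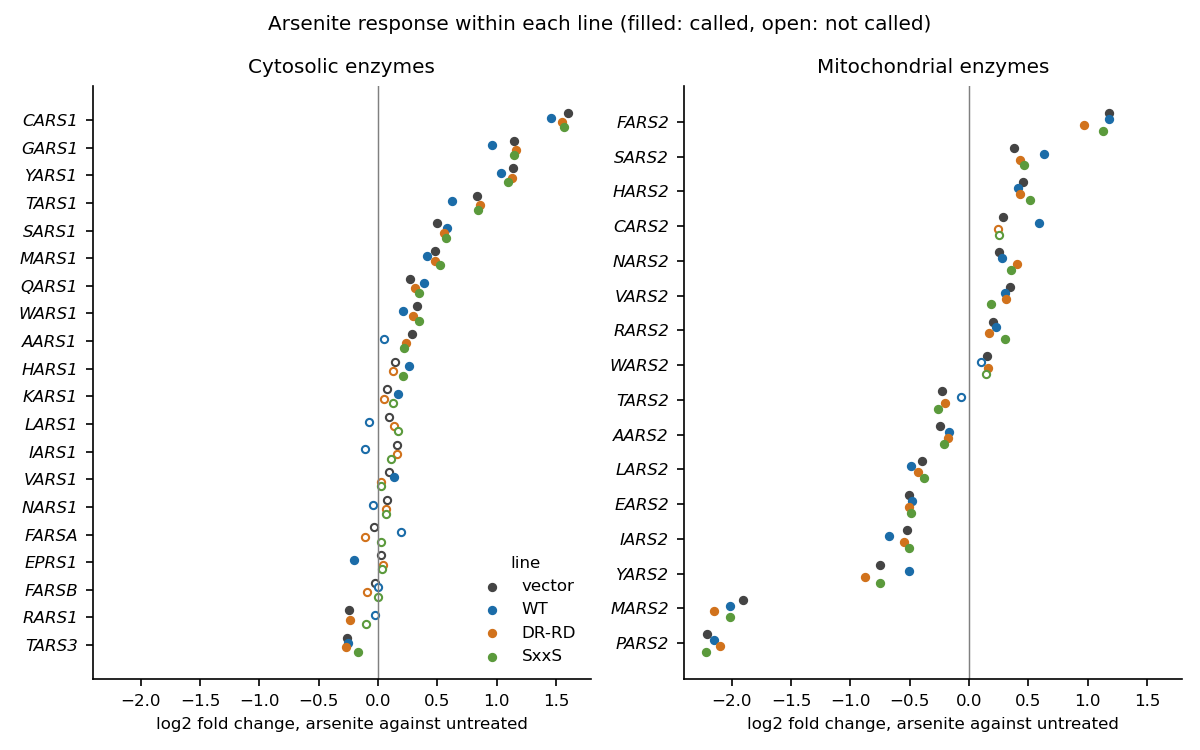
Arsenite response of each synthetase gene in the vector, WT, DR-RD and SxxS lines as log2 fold changes, with filled symbols for genes called at an adjusted p under 0.05 by edgeR. The 4 lines lie close together for most genes, for example between -2.21 and -2.10 in PARS2, and the WT line lies apart in TARS1, where it is at 0.62.

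The size of the arsenite response was compared between the 4 lines by the interaction of line and treatment in edgeR. No member was called, and no gene of the 22486 tested was called either (0%), with adjusted p of the members from 0.654 to 0.998. At an unadjusted p under 0.05 there were 5 members (6.37% of all genes tested), TARS1, YARS2, RARS1, AARS1 and GARS1. In TARS1 the response ran from 0.62 in WT to 0.86 in DR-RD, and in YARS2 from -0.88 in DR-RD to -0.51 in WT. DESeq2 called 0 members as well (18 genes in all), with the smallest adjusted p of 0.0750 in TARS1. Without both WT libraries that stood apart, edgeR called 46 genes and 0 members, and the smallest adjusted p was 0.0568, in CARS1.

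Hydrogen peroxide gave fewer calls among the synthetase genes. Averaged over the lines, 5 cytosolic genes rose (6.78% of all genes tested rose), 3 fell (5.30%) and 12 were not called. Of the mitochondrial genes 1 rose, 3 fell and 12 were not called. The same 12 untreated libraries serve as controls for both oxidants. AARS1 had the largest rise, from 106, 111 and 108 to 132, 141 and 133 CPM in the vector line, and the 12 peroxide libraries (131 to 145 CPM (median 138)) were all above the 12 untreated ones (106 to 119 CPM, median 112), as were 0.551% of all genes tested. Its log2 fold change was 0.27 ± 0.024, with an edgeR adjusted p of 3.09e-09. AARS1 was called higher in each of the 4 lines, as were 0.116% of all genes tested.

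CARS1 (0.25 ± 0.040), GARS1 (0.21 ± 0.024), YARS1 (0.16 ± 0.026) and TARS1 (0.13 ± 0.024) were the other cytosolic genes that rose with peroxide, given as log2 fold changes with SE. All of them also rose with arsenite. CARS1 was at 74.9, 77.7 and 83.9 CPM in the vector line with peroxide and reached 113 CPM in WT peroxide replicate 2. VARS1 fell by 0.26, FARSB by 0.16 and QARS1 by 0.11 on the log2 scale. VARS1 was called lower in 3 lines, and the vector libraries were at 124, 130.4 and 132 CPM untreated and 101, 106 and 108 CPM with peroxide. QARS1, which rose with arsenite, was called lower with peroxide in none of the single lines, and its averaged peroxide call was lost with no filter on low counts (-0.10, edgeR adjusted p 0.141).

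Of the mitochondrial genes, HARS2 rose by 0.16 on the log2 scale (SE 0.037), and VARS2, IARS2 and SARS2 fell by 0.30, 0.24 and 0.20. VARS2 was at 25.3, 22.9 and 23.1 CPM untreated and 19.9, 18.6 and 18.8 CPM with peroxide in the vector line, and SARS2 at 26.4, 27.1 and 28.0 and 20.4, 20.4 and 20.9 CPM. IARS2 had 189, 197 and 186 CPM with peroxide, between its untreated and its arsenite levels. PARS2 and MARS2 had peroxide values of -0.13 and 0.014 on the log2 scale and were not called, although PARS2 was near the threshold (edgeR adjusted p 0.0567, and called lower in 8 of 33 alternatives). Without both WT libraries that stood apart, 6 cytosolic genes rose and 6 fell, and 1 mitochondrial gene rose and 7 fell, while the shares of all genes tested went up as well, to 14.7% higher and 13.9% lower. With WT peroxide replicate 2 alone left out there were 5 cytosolic falls in place of 3, the added genes being FARSA (-0.14) and KARS1 (-0.062), NARS1 was called higher (0.11) and PARS2 lower (-0.14). With WT untreated replicate 1 alone left out there were 5 mitochondrial falls in place of 3, the added genes being NARS2 (-0.089) and PARS2 (-0.15). PARS2 was also called without vector peroxide replicate 3 (-0.15) or DR-RD peroxide replicate 3 (-0.15).

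Within single lines peroxide gave few calls. Cytosolic genes were called 3 times in the vector line (1.35% of all genes tested), 7 times in WT (8.06%), 3 times in DR-RD (1.03%) and 2 times in SxxS (1.02%), and mitochondrial genes 2, 2, 1 and 0 times. At an unadjusted p under 0.05, edgeR gave 14 members in the vector line (11.3% of all genes tested) and 14 in WT (25.2%). In SxxS, where no mitochondrial gene was called by edgeR, 4 mitochondrial genes were at an unadjusted p under 0.05 (9.82% of all genes) and DESeq2 called 1. These counts depended on the pair of WT libraries that stood apart. Without both, the cytosolic counts were 10, 8, 9 and 10 and the mitochondrial counts 5, 3, 3 and 5, where 9.87%, 8.98%, 10.4% and 6.56% of all genes were called. All groups share 1 estimate of spread, and its part in this change was not tested. No member was called in the interaction of line and peroxide in edgeR, where 0.685% of all genes tested were called. The smallest adjusted p of a member was 0.372, and SARS2, YARS2 and VARS1 were below an unadjusted p of 0.05 (8.76% of all genes tested). DESeq2 also called 0 members. Without both WT libraries that stood apart, edgeR called 0 members and 1.51% of all genes tested, and the smallest adjusted p of a member was 0.136, in FARS2.

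Arsenite and peroxide were then set against each other directly, which uses no untreated library. Of the 36 members 33 were called (68.7% of all genes tested), 14 cytosolic genes higher and 3 lower with arsenite and 8 mitochondrial genes higher and 8 lower, where 37.3% of all genes were higher and 31.3% lower. The largest differences were those of MARS2 (-2.03 ± 0.054), PARS2 (-2.03 ± 0.049), CARS1 (1.29 ± 0.040) and FARS2 (1.01 ± 0.052) on the log2 scale. AARS1 was lower with arsenite than with peroxide, by 0.074 on the log2 scale (SE 0.024), together with RARS1 and TARS3. EPRS1, IARS1 and NARS1 were not called. The call of FARSA (0.11 ± 0.047, edgeR adjusted p 0.046) was lost in 22 of 33 alternatives, 15 of them with a single library left out, where the log2 difference was between 0.082 and 0.11. These libraries were vector peroxide replicates 1 and 2, WT peroxide replicates 1 and 3, DR-RD peroxide replicates 1 and 2, SxxS peroxide replicates 1 and 2, vector arsenite replicates 1 and 3, WT arsenite replicate 1, DR-RD arsenite replicates 1, 2 and 3 and SxxS arsenite replicate 2. The call of HARS1 was lost with no filter on low counts (0.10, edgeR adjusted p 0.0574). IARS1 was called without WT arsenite replicate 1 (0.15) and NARS1 without WT peroxide replicate 2 (-0.068). Without both WT libraries that stood apart, 15 cytosolic genes were higher and 4 lower, and the mitochondrial counts were 8 and 8. Of all genes tested, 40.1% were then higher and 34.7% lower.

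In untreated cells no synthetase gene was called between a complemented line and the vector line. In edgeR 0 of 36 members were called for WT (0.196% of all genes tested), 0 for DR-RD (0.0267%) and 0 for SxxS (0.0178%). At an unadjusted p under 0.05 there were 2 members for WT, QARS1 (-0.17) and TARS1 (0.13), where 7.0% of all genes were below it, and 0 for DR-RD (3.12%) and SxxS (3.31%). DESeq2 called 0 members in each. The log2 differences of the members ran from -0.17 to 0.15 for WT, from -0.098 to 0.15 for DR-RD and from -0.10 to 0.073 for SxxS, and their 95% intervals stayed within -0.28 and 0.35. Without both WT libraries that stood apart, 3 cytosolic genes were called between WT and vector, as were 2.99% of all genes tested.

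Levels between genes were compared per kilobase of the deposited gene length, and the ranks below are by that length. It exceeds the canonical transcript to different degrees, at 22418 against 4483 bases in IARS1 and 2434 against 1811 bases in FARSA. A full ranking by canonical transcript length was not made and may differ. By that length CARS1 would not be the lowest cytosolic gene. TARS3 has a longer canonical transcript (3481 against 2737 bases) and a lower untreated median (31.7 against 71.0 CPM). In untreated vector cells FARSA was highest at 111 ± 1.44 CPM per kilobase, before TARS1 (96.0 ± 1.10) and EPRS1 (93.1 ± 0.267). KARS1, RARS1 and SARS1 followed at 75.0 ± 1.40, 73.6 ± 0.160 and 72.4 ± 1.11, and these differences between neighbours were little larger than the larger SD of each pair. The highest mitochondrial gene was IARS2 at 53.3 ± 1.04, and YARS2 followed at 30.8 ± 1.15. The lowest members were FARS2 (1.84 ± 0.106), RARS2 (2.76 ± 0.133), CARS2 (2.91 ± 0.109) and VARS2 (3.68 ± 0.206). CARS1 (6.77 ± 0.0530) was the lowest cytosolic gene, next to PARS2 (6.83 ± 0.156), and the pair did not differ beyond their spread. Over the 12 untreated libraries the cytosolic median was 34.4 to 37.7 CPM per kilobase and the mitochondrial median 9.52 to 10.5, a ratio of 3.56 ± 0.17 (SD, n = 12). This ratio depends on the length that is used, and it was 6.52 per length of the canonical transcript.

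**Figure D4:**
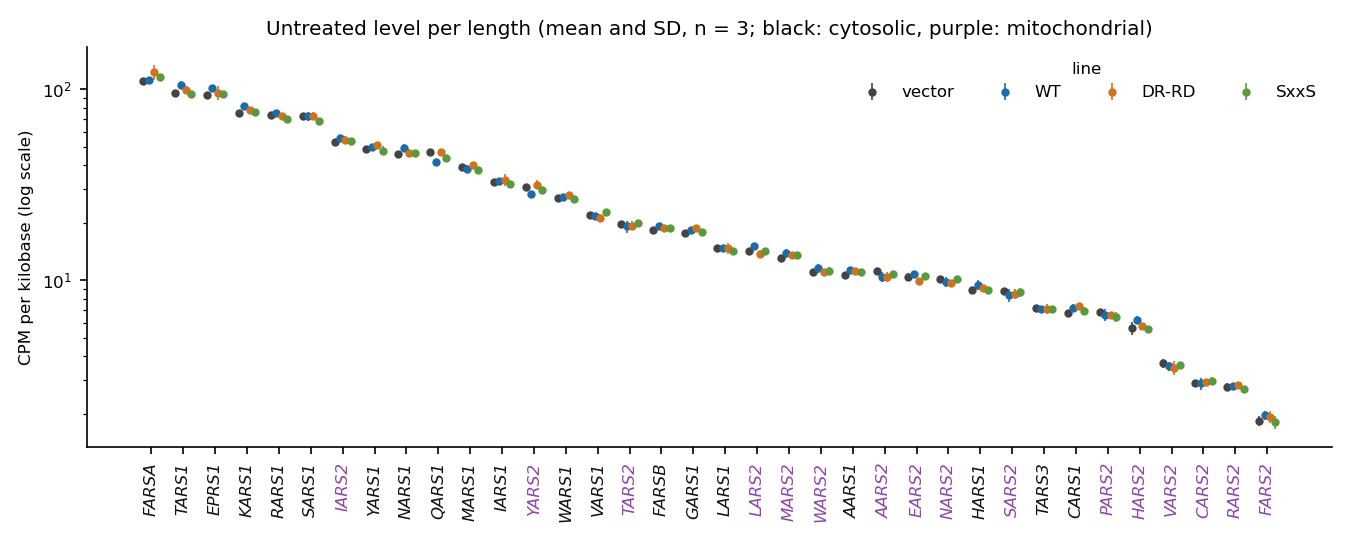
Level of each synthetase gene in untreated cells as CPM per kilobase of the deposited gene length, on a log scale and in descending order. Cytosolic names are in black and mitochondrial names in purple. Points are means and bars SDs of 3 libraries for each line, from 110.6 for FARSA to 1.84 for FARS2 in the vector line.

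PARS2 and MARS2, which fell most with arsenite, have few exons. The number of exons of the canonical transcript was therefore set beside the response. Over all protein-coding genes tested, the median log2 fold change with arsenite was -0.59 for 392 genes with 1 exon, of which 59.2% fell, and -0.31 for 755 genes with 2 exons, of which 55.1% fell. It was -0.0092 for 3 to 5 exons (38.1% fell), 0.086 for 6 to 10 (32.9%), 0.12 for 11 to 20 (30.4%) and 0.034 for over 20 exons (34.5%). MARS2 with 1 exon and PARS2 with 2 exons lay below the medians of their bins, and so did YARS2 with 5 exons and EARS2 with 9. The other mitochondrial genes that fell have many exons, IARS2 with 23, LARS2 and AARS2 with 22 each and TARS2 with 18. FARS2 with 7 exons and WARS2 with 6 rose. Across the 16 mitochondrial genes Spearman's rho of exon number and log2 fold change was 0.25, and across the 20 cytosolic genes it was -0.12. These are descriptions across genes, which share libraries and are not independent replicates. With peroxide the median of the genes with 1 exon was 0.049.

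**Figure D5:**
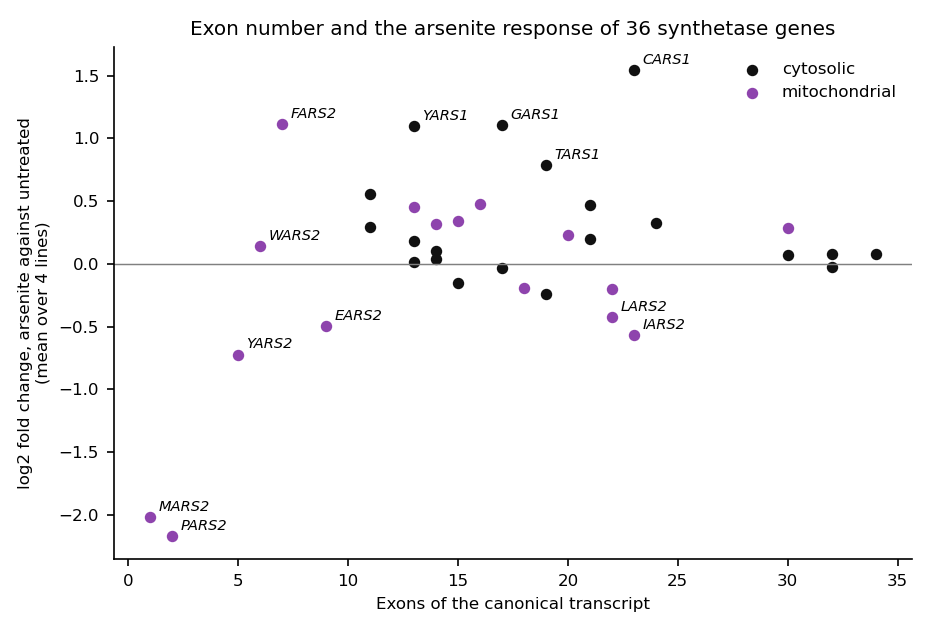
Log2 fold change with arsenite, averaged over the 4 lines, against the number of exons of the canonical transcript for the 36 synthetase genes, cytosolic in black and mitochondrial in purple. MARS2 (1 exon) and PARS2 (2 exons) lie near -2, apart from all other members, and FARS2 (7 exons) lies at 1.11.

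Of 12 other genes that act with the synthetases, 5 rose with arsenite, 4 fell and 3 were not called, shares near the 37.4% and 31.5% of all genes tested. MTFMT, which formylates the methionyl-tRNA that MARS2 makes, fell from 15.9 to 17.8 CPM (median 16.6) untreated to a range of 5.66 to 7.73 CPM (median 6.69), by 1.33 on the log2 scale (SE 0.040). AARSD1, an editing factor for mischarged alanyl-tRNA, rose by 0.74 ± 0.077, and its highest arsenite library, at 85.6 CPM, was WT arsenite replicate 1 and lay far above the median of 47.7 CPM. PSTK and SEPSECS, which make selenocysteyl-tRNA from seryl-tRNA, rose by 0.49 and 0.44. Of the subunits of the mitochondrial glutamyl-tRNA amidotransferase, which supplies glutaminyl-tRNA there, GATB rose by 0.33 and GATC and QRSL1 fell by 0.26 and 0.14. In AARSD1 and GATC, 34.2% and 47.6% of the exon bases overlap other genes, so their reads cannot be assigned with certainty. The tRNA exporter XPOT fell by 0.24. Of the scaffold proteins of the multi-tRNA synthetase complex, AIMP1 rose by 0.085 and AIMP2 (-0.027) and EEF1E1 (-0.073) were not called. DTD1 (0.063), a deacylase of D-aminoacyl-tRNA, was not called either. In WT, AIMP1 went from 68.9 ± 4.28 to 79.1 ± 11.2 CPM and EEF1E1 from 54.4 ± 3.20 to 58.1 ± 6.61 CPM. In the order vector, DR-RD and SxxS, AIMP1 went from 65.2, 66.9 and 64.5 to 67.6, 66.4 and 69.0 CPM. EEF1E1 went from 51.4, 55.7 and 52.7 to 47.4, 47.1 and 51.7 CPM in that order. With peroxide MTFMT, EEF1E1 and QRSL1 fell, by 0.16, 0.14 and 0.084, and none of the 12 was called higher. XPOT went from 277, 279 and 273 to 316, 315 and 299 CPM with peroxide in the vector, DR-RD and SxxS lines. In the WT line it went from 271 to 261 CPM, with an SD of 71.8 CPM among the peroxide libraries. That group holds WT peroxide replicate 2, which stood apart, and XPOT was not tested without it.

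The 6 genes listed as markers of the amino acid response all rose with arsenite, as did 37.4% of all genes tested. Amino acid supply was not measured, and ATF4 also acts under other stresses. ATF4 mRNA rose by 0.40 ± 0.062, ASNS (asparagine synthetase) by 0.85 ± 0.028, TRIB3 by 1.19 ± 0.048, CHAC1 by 2.32 ± 0.085, DDIT3 by 2.51 ± 0.10 and SESN2 by 3.41 ± 0.028 on the log2 scale. In ASNS and DDIT3, 49.3% and 39.6% of the exon bases overlap other genes, so their reads cannot be assigned with certainty. SESN2 went from a median of 53.6 CPM untreated to 570.0 CPM with arsenite. With peroxide 5 of the 6 rose, where 6.78% of all genes tested rose. ATF4 rose by 0.46, CHAC1 by 0.92, SESN2 by 0.46, ASNS by 0.27 and TRIB3 by 0.23, while DDIT3 had 0.17 and was not called. ATF4 mRNA was at a median of 532 CPM untreated, 696 CPM with arsenite and 707 CPM with peroxide. With peroxide its mean was 698, 696 and 694 CPM in the vector, DR-RD and SxxS lines and 877 ± 264 CPM in WT. With arsenite WT was at 742 ± 161 CPM. Each of these WT groups holds a library that stood apart, and ATF4 was not tested without them. CARS1 was at medians of 208 CPM with arsenite and 82.3 CPM with peroxide. ATF4 protein is not measured by these libraries, and the study reports a post-transcriptional increase of ATF4 with arsenite in all its cell lines. The part of these markers in the response of the synthetase genes was not tested.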

How the data were processed

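Poly(A) RNA of 36 libraries was sequenced as paired-end reads on a DNBseq platform with a strand-specific kit. According to the methods of the study, the authors used qAlign of QuasR for alignment to GRCh38 (primary assembly) and deposited raw counts per gene with a gene width. The annotation release and the use of strand or of both mates in counting are not given in the sources used here, so overlapping genes may share reads. Groups and replicate numbers were taken from the labels, and 0 columns were left unmatched.

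Gene identifiers were matched to GENCODE release 44 (61369 of 61587 rows, and all 36 members, 33 in the same version). The deposited width equalled the union of exons in 34 members. A gene was kept if its counts in the untreated vector group (3 libraries) summed to 10 or more, as in the study. Counts were fitted in R 4.3.3 with edgeR 4.0.16, which uses limma 3.58.1 (TMM factors, 12 group means over all libraries, robust quasi-likelihood F tests, biological coefficient of variation 12.4%), with Benjamini-Hochberg adjustment over 22486 genes and calls at an adjusted p under 0.05. Levels between genes were divided by the width in kilobases. The code was tested on simulated counts. Replicates differed by more than counting error (chi-square per degree of freedom 3.18 to 331), so none was a duplicate, and the spread between libraries, not depth, limits precision.

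All members are named. Values by library in the vector line, with ranges over the lines, are given for the 6 members of each group with the largest arsenite response, for called members with a sign opposite to the median of their group, and for the pairs HARS1 and HARS2, TARS1 and TARS3, and WARS1 and WARS2. The members and lists were chosen with earlier results of these data known. Alternatives were other scalings, other filters, halved counts, DESeq2 1.42.0, only the groups compared, a replicate block, each library left out, both WT libraries left out, and other gene lengths (canonical transcript, added after the data were seen).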

Additional observations from a re-analysis of the deposited data

How the results depend on the processing

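No called direction reversed among the alternatives run. Of 1188 member values for each averaged comparison, 1164 kept their side of the threshold for arsenite, 1165 for peroxide and 1160 for arsenite against peroxide. The arsenite counts of both groups stayed within 1.5 times, except that 7 cytosolic genes were called in the WT line with only the groups compared, against 13. With each library left out in turn, the averaged arsenite counts were 11 to 13 and 2 for cytosolic rises and falls and 8 and 8 for mitochondrial ones. The median of all genes moved from 0.060 to 0.016 without composition factors and to 0.17 with no filter, where 42726 genes were tested.

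The peroxide counts depended most on the setting. Without both WT libraries, averaged falls were 6 cytosolic and 7 mitochondrial in place of 3 and 3, and DESeq2 gave 5 mitochondrial falls. Leaving out single libraries gave 3 to 5 for each. By line, in the order cytosolic then mitochondrial, the vector counts of 3 and 2 became 1 and 0 with no filter, 10 and 5 without both WT libraries, and 10 and 4 with only the groups compared. The cytosolic vector count was 6 without composition factors and 5 by DESeq2. The WT counts of 7 and 2 became 3 and 1 with no filter, 0 and 0 with only the groups compared, and 4 mitochondrial by DESeq2. The DR-RD counts of 3 and 1 became 1 and 0 with no filter, 9 and 3 without both WT libraries, 5 cytosolic by DESeq2 and 0 mitochondrial with only the groups compared. The SxxS counts of 2 and 0 became 4 and 1 without composition factors, 0 cytosolic with no filter, 10 and 5 without both WT libraries, 5 and 1 by DESeq2, and 8 and 5 with only the groups compared. Leaving out 1 library gave 0 to 1 mitochondrial genes for vector (any of its 6 untreated and peroxide libraries), 3 to 8 cytosolic for WT (3 or 4 without an untreated WT library), 2 to 4 mitochondrial for WT (4 without WT peroxide replicate 1), 0 to 1 mitochondrial for DR-RD and 1 to 2 cytosolic for SxxS (1 without SxxS peroxide replicate 3). DR-RD lost its mitochondrial call without untreated replicates 2 or 3 or peroxide replicates 1 or 3. Between untreated WT and vector, 1 cytosolic gene was called without composition factors, 3 without both WT libraries and 1 with only the groups compared. The level ratio was 6.195 without division by length and 6.52 with the canonical transcript, in place of 3.56. The causes were not tested.

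Whether the replicate numbers pair the libraries is not settled by these data. Of 198 same-numbered pairs in different groups, 44 had a correlation of deviations over 0.1 (median 0.016, range -0.85 to 0.78). Of 36 libraries, 18 correlated best with their own number among the 3 numbers, a hint of pairing from the data only. With the replicate number as a block, arsenite calls over all genes were 15349 in place of 15477, and 12 cytosolic genes rose and 2 fell. This block changed no count of members by over 1.5 times.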
